A study of Saccharomyces cerevisiae with 47 samples.

Results

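The Abf1 sites described here are the 410 of 1365 distinct sites in the deposited Abf1 list whose chromosome, start, end and strand were repeated in 4 or 5 identical rows. They made up 30.0% of the Abf1 sites and 48.2% of the 3699 rows, and both site lists of the series together held 2307 sites. They were chosen by the number of rows alone, and the sources used here do not say what a repeated row stands for. The study assembled chromatin in vitro from a plasmid library of budding yeast DNA and recombinant yeast histone octamers, and pulled down a Strep-tagged factor after light formaldehyde crosslinking and MNase digestion. Abf1 was added at 50 nM, without a remodeler or together with one of INO80, ISW2 and Chd1 (24 nM each) or RSC (12 nM). Control reactions had neither factor nor remodeler, and no group had more than 2 replicates. Abf1 was thus present in 5 kinds of reaction, and no site was listed more than 5 times, but no source used here links these numbers. The list was deposited for the whole series and carried no sample, so depth and replicate spread could not be read from it and no reaction could be compared with another. All intervals below are exact 95% binomial intervals, those of a difference normal approximations, and cover counting error over sites only.

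Abf1 (ARS-binding factor 1) is an essential general regulatory factor of budding yeast. It recognises a bipartite DNA motif, and it is known at many promoters, at replication origins and at the silencers of the mating-type cassettes. At promoters such factors keep nucleosomes off their sites and set a border from which remodelers space the neighbouring nucleosomes. Each listed site covered 15 bp if its start counts from 0 and 16 bp if it counts from 1, which the file does not say. Positions are printed as deposited, with a possible shift of 1 bp. No sequence of the sites was used here.

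The list had 267 sites in 4 rows and 143 in 5 rows, next to 349 in 3 rows, 263 in 2 rows and 343 in 1 row. Every site carried a single score, which the authors deposited without a definition. Just inside the threshold, the sites in 4 rows had a median score of 12.15 (quartiles 11.26 and 13.34). Just outside it, those in 3 rows had a median of 12.18 (11.36 and 13.13). Sites in 5 rows had a median of 12.16, those in 2 rows 11.89 and those in 1 row 11.85. The ranges of all 5 classes overlapped almost fully, and many rows did not go with a high score. Of the 100 highest-scoring Abf1 sites, 33 were in 4 or 5 rows (33.0%, 23.9 to 43.1), close to their share of the whole list.

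Sites in 4 or 5 rows lay within 500 bp upstream of a start codon more often than the other Abf1 sites. They also lay more often between divergently transcribed genes. The upstream class is set by distance alone, and 55 of its 257 sites in 4 or 5 rows were inside another protein-coding gene. Of the 410 sites, 257 (62.7%, 57.8 to 67.4) had their centre no more than 500 bp before the start codon of a protein-coding gene, against 459 of 955 sites in 1 to 3 rows (48.1%). The difference was 14.6 percentage points (odds ratio 1.82; two-sided Fisher's exact test, p = 4.35e-06 after Benjamini-Hochberg adjustment over 13 tests). Between divergent genes lay 132 sites (32.2%, 27.7 to 37.0), against 21.9% of the other sites (odds ratio 1.69; exact adjusted p = 0.000321). Within 300 bp upstream the upstream difference fell short of the threshold at 6.07 points (exact adjusted p = 0.0741), and on chromosomes V to IX alone, which the series text names as the reconstituted DNA, the divergent one was 4.10 points (exact adjusted p = 0.495). Sites are no replicates, and neighbours among them share their surroundings, so these p-values describe the list and not the spread between experiments.

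**Figure D1:**
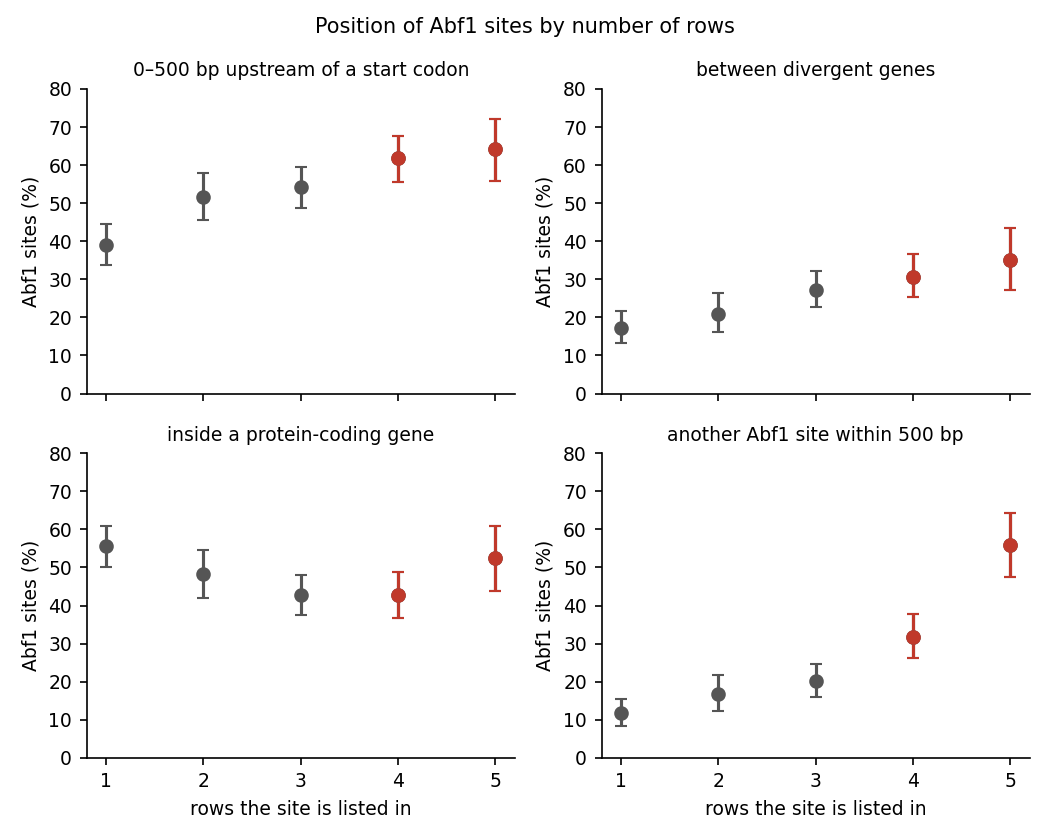
Share of Abf1 sites (y axis, %) in 4 kinds of position against the number of rows a site is listed in (x axis); points are shares, bars exact 95% intervals, and red marks 4 and 5 rows. The upstream share was 39.1% in 1 row and 64.3% in 5 rows, and the share with another Abf1 site within 500 bp was 11.7% in 1 row and 55.9% in 5 rows.

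The plot of position by row number shows each class of rows separately. The upstream share was 39.1% in 1 row, 51.7% in 2, 54.2% in 3, 61.8% in 4 (55.7 to 67.7) and 64.3% in 5 (55.9 to 72.2). The share between divergent genes was 17.2%, 20.9%, 27.2%, 30.7% and 35.0% in the same order. The share inside protein-coding genes had no such order, at 55.7% in 1 row, 42.7% in 3 and in 4 rows and 52.4% in 5. Sites in 5 rows lay between tandem genes in 11.9% of cases (7.08 to 18.4), below the 26.6% of sites in 4 rows (21.4 to 32.3). This last pair of intervals does not overlap, whereas for the upstream and divergent shares the intervals of 4 and 5 rows overlap.

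The intergenic share did not separate the sites from the rest of the list. It was 53.9% (48.9 to 58.8) against 50.8%, a difference of 3.12 points whose 95% interval ended at 8.89 (exact adjusted p = 0.373). Inside protein-coding genes lay 189 sites (46.1%) against 48.9% (exact adjusted p = 0.374). Compared with sites in 1 row alone, the sites in 4 or 5 rows were 9.59 points more often intergenic (exact adjusted p = 0.0193). Between tandem genes lay 88 sites (21.5%) against 27.7% (exact adjusted p = 0.0283), a difference of -6.29 points. It was -0.825 points without sites that had a neighbour within 500 bp (exact adjusted p = 0.942), -10.8 points at or above the median score, and -5.97 points, short of the threshold, with sites up to 3 bp apart merged (exact adjusted p = 0.0538). Only 1 site of 410 lay between convergent genes, HXT12 and CSS1 on chromosome IX, against 10 of 955 (exact adjusted p = 0.246).

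Of the 257 upstream sites, 202 were intergenic and 55 lay inside another protein-coding gene. Intergenic upstream sites were thus 202 of all 410 sites, against 412 of the 955 sites in 1 to 3 rows. Upstream sites inside another gene were 55 of 410 against 45 of 955. These shares of the whole groups were not tested. Among sites inside genes, 55 of 189 (29.1%, 22.7 to 36.1) were also within 500 bp upstream of another gene, against 45 of 467 (9.64%, 7.12 to 12.7) of the sites in 1 to 3 rows (odds ratio 3.85; Fisher's exact test, adjusted over 4 added tests, p = 5.97e-09). The divergent share is a different measure from the upstream share. Among intergenic sites, 132 of 221 (59.7%) lay between divergent genes against 43.1% (odds ratio 1.96; exact adjusted p = 4.73e-05). These tests were added after seeing the data and were not repeated with close sites joined. Close neighbours inside genes enter them as separate sites, such as the 7 upstream of YHR130C and the 4 each upstream of AFG3 and PGA2. The p-values treat such sites as independent.

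Upstream sites in 4 or 5 rows were spread over a wider stretch before the start codon than the other upstream sites. The nearest start codon was a median of 218 bp from the site centre (quartiles 158 and 323, n = 257), and for sites in 1 to 3 rows 180 bp (138 and 275, n = 459). From 100 to 200 bp lay 104 of the 257 (40.5%, 34.4 to 46.7), against 53.8% of the others, a difference of -13.3 points (Fisher's exact test, adjusted p = 0.00257). The share was 43.6% for 4 rows and 34.8% for 5 rows (25.1 to 45.4). Few sites of either group lay nearer. In 4 or 5 rows, 5 were within 50 bp (1.95%) and 5 from 50 to 100 bp (1.95%), against 1.96% and 2.61% of the others. Intergenic upstream sites had a median of 202 bp, against 171 bp for the others. Those inside another gene were the reverse, with a median of 314 bp against 390 bp, a contrast that was not tested. On chromosomes V to IX alone the 100 to 200 bp share differed by -19.2 points, short of the threshold (exact adjusted p = 0.0663).

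**Figure D2:**
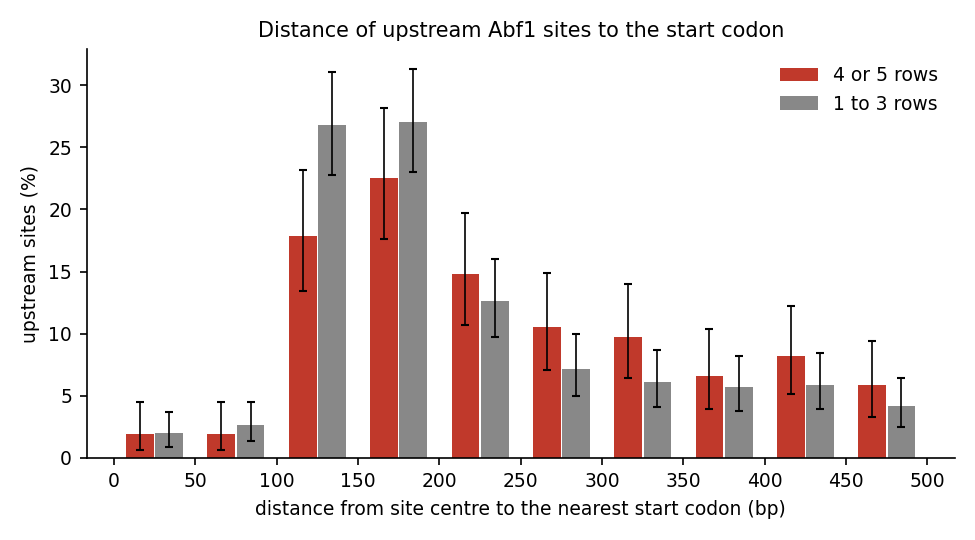
Share of upstream Abf1 sites (y axis, %) by distance of the site centre from the nearest start codon (x axis, bp, bins of 50 bp); red bars are the 257 upstream sites in 4 or 5 rows, grey bars the 459 in 1 to 3 rows, and error bars exact 95% intervals. From 100 to 150 bp lay 17.9% of the red and 26.8% of the grey sites, and beyond 200 bp each red bar is above its grey neighbour.

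The motif strand had no preference along the chromosome, with 205 of the 410 sites on the plus strand (50.0%). Relative to the gene, 99 of the 172 sites upstream of a single gene were on its coding strand (57.6%, 49.8 to 65.1), short of the threshold against an even split (exact binomial test, two-sided, p = 0.0563). The sites in 1 to 3 rows had 46.0%, and the difference of 11.6 points passed (Fisher's exact test, adjusted p = 0.0283). The call was lost against sites in 1 row, at 6.07 points (exact adjusted p = 0.409), and for genes within 1000 bp, at 6.11 points (p = 0.291). It was also lost at 9.82 points with sites up to 3 bp apart merged (exact adjusted p = 0.0845). In 5 rows the share was 65.1% (52.0 to 76.7) and in 4 rows 53.2% (43.4 to 62.8). The interval for 5 rows treats sites as independent. It counts separately 6 partly overlapping sites inside YHR131C, all on the coding strand of YHR130C.

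Sites in 4 or 5 rows stood close to other Abf1 sites more often than the rest of the list did. Another Abf1 site, with a centre more than 3 bp away, lay within 500 bp of 165 of the 410 (40.2%, 35.5 to 45.2), against 16.1% of the sites in 1 to 3 rows (odds ratio 3.50; Fisher's exact test, adjusted p = 1.47e-19). Inside genes the shares were 50.3% (95 of 189) and 18.8%, and between genes 31.7% (70 of 221) and 13.2% (exact p adjusted over 4 added tests, 1.34e-14 and 3.27e-08). Among sites at or above the median score the difference was smaller, at 12.4 points (48 of 219 against 45 of 471; exact adjusted p = 0.000280), and for sites in 5 rows alone it was 36.4 points. A pair of neighbours enters this count with both its sites. Sites that overlap also count as neighbours, with centres down to 6 bp apart among the 410, so a neighbour need not be a separate stretch of DNA. When sites up to 200 bp apart were joined, which removes the closest neighbours by construction, the difference was 1.40 points (exact adjusted p = 0.429).

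Close neighbours also shared their row number, which the rule used, so the following is a description. All 32 pairs of Abf1 sites with centres up to 3 bp apart had equal row numbers, as did 78 of 91 pairs (85.7%, 76.8 to 92.2) more than 3 and up to 50 bp apart. The share was 42.9% from 50 to 100 bp, 40.0% from 100 to 200 bp, 29.1% from 200 to 500 bp and 22.4% from 500 to 1000 bp. Sites paired at random from the list would have equal numbers in 21.5% of pairs. Of the 63 pairs more than 3 and up to 50 bp apart with at least 1 site in 4 or 5 rows, both sites were in 4 or 5 rows in 59 (93.7%).

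**Figure D3:**
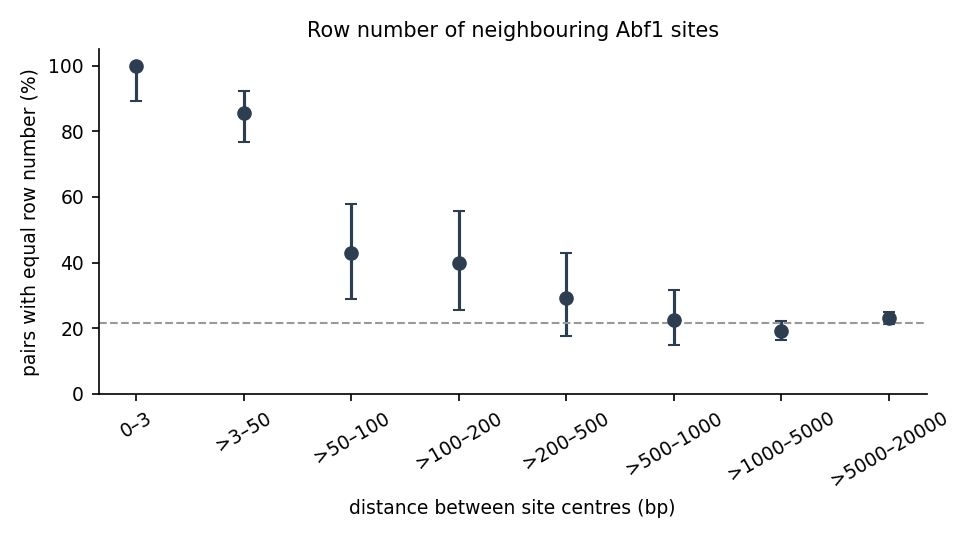
Share of pairs of Abf1 sites with equal row numbers (y axis, %) by distance between their centres (x axis, bp); bars are exact 95% intervals, and the dashed line is the 21.5% of pairs drawn at random from the list. The share was 85.7% for pairs more than 3 and up to 50 bp apart and 22.4% from 500 to 1000 bp.

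Joined over gaps of up to 1000 bp, the 410 sites formed 313 runs, of which 243 were single sites, 55 were pairs and 15 held 3 or more. Those 15 runs contained 57 sites, 45 of them inside protein-coding genes, and 8 runs were on chromosomes V to IX. The run with most sites was inside YHR131C on chromosome VIII (365364 to 365445), where 7 sites on the minus strand lay within 66 bp, 6 in 5 rows and 1 in 4. Their spacings were 24, 3, 3, 30, 3 and 3 bp, all multiples of 3, and their scores were low, from 10.6 to 10.9. Those 3 bp apart overlap, so the 7 are not separate stretches of DNA. They lay 72 to 138 bp upstream of YHR130C, which made that gene the one with most listed sites when overlapping sites are counted separately. SEG2, which encodes an eisosome protein, had 4 sites on the minus strand within 117 bp on chromosome XI, spaced by 12, 75 and 30 bp and also low in score (10.7 to 11.0).

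Other runs inside genes were looser, and SPC25, PHO4, SCS3, YCH1, CUE4 and ALF1 held sites on both strands. PHO4, the transcription factor gene of the phosphate response, had 5 sites over 655 bp (chromosome VI, 225075 to 225745), 4 of them in 5 rows and 1 with a score of 15.1, the highest of any site in 5 rows. The first and the highest-scoring of them lay 314 and 445 bp upstream of QCR6, which encodes a subunit of respiratory complex III. SPC25, a kinetochore gene, had 4 sites in 5 rows over 150 bp (chromosome V, 191977 to 192142), 197 to 347 bp before AFG3, which encodes a mitochondrial inner membrane protease. ALF1, a tubulin folding factor gene, had 4 sites in 4 rows over 248 bp upstream of PGA2. SCS3 had 4 in 5 rows over 716 bp, YAT1, a carnitine acetyltransferase gene, 4 over 1542 bp, YCH1 3 in 5 rows over 97 bp upstream of ADE3, and CUE4 3 in 5 rows, 152 to 275 bp before YML100W-A. PIB2, a gene of TORC1 signalling, had 3 inside and 1 more in the divergent promoter it shares with STT3, the catalytic oligosaccharyltransferase gene.

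Among promoters, 3 sites in 4 rows lay within 11 bp between RLI1, a ribosome recycling factor gene, and UBC13, a ubiquitin-conjugating enzyme gene (chromosome IV, 628958 to 628984), 432 to 443 bp from the RLI1 start codon. Between PNC1, the nicotinamidase gene, and VIR1 there were 3 plus-strand sites within 40 bp on chromosome VII, 2 in 5 rows and 1 in 4. YPT1, a Rab GTPase gene, and TUB2, the beta-tubulin gene, shared a pair of sites 11 bp apart on opposite strands, with another inside YPT1. DED1, an RNA helicase gene of translation initiation, had a pair in 5 rows 164 and 178 bp before its start codon and 1 more in its coding sequence. Other pairs among the 10 closest were inside TDA7 (9 bp apart), TRF5 (11 bp) and VID30 (12 bp). Of the 59 pairs of these sites more than 3 and up to 50 bp apart, 43 were on the same strand (72.9%). Many of these pairs come from the YHR131C run, whose 7 sites were all on the minus strand. The share was not computed for the other Abf1 sites, so it is not a trait set against the list.

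**Figure D4:**
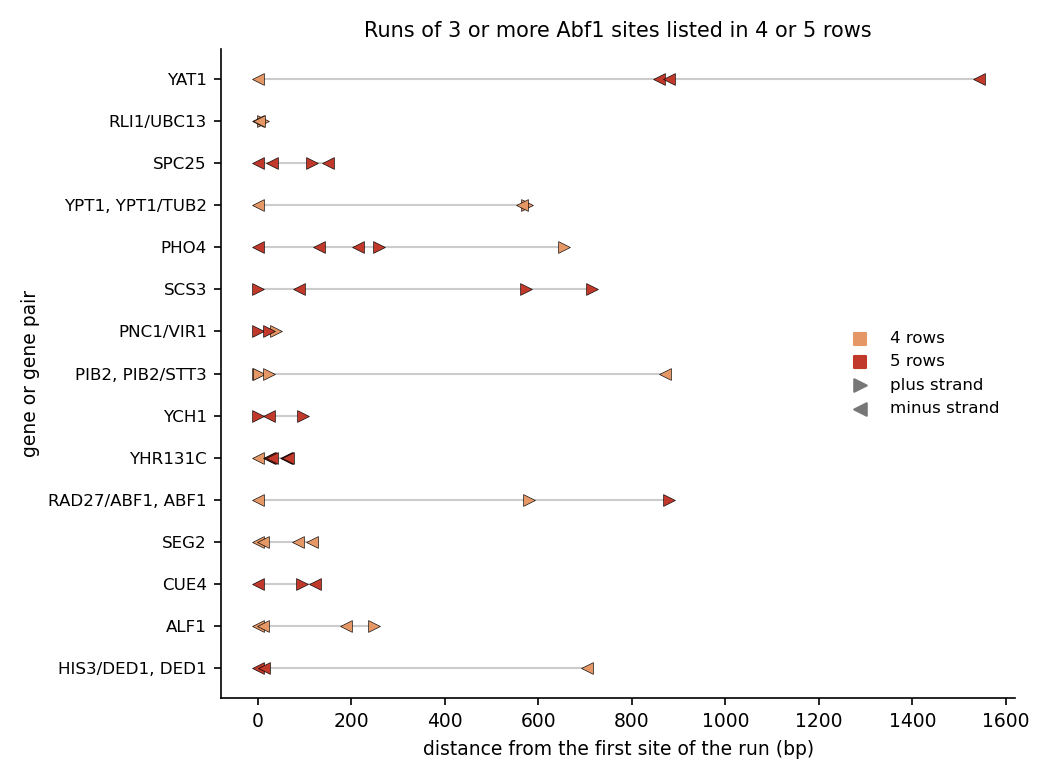
Position of each site (x axis, bp from the first site of the run) in the 15 runs of 3 or more Abf1 sites listed in 4 or 5 rows; rows of the plot are genes or gene pairs, arrowheads give the motif strand, and colour gives 4 or 5 rows. The YHR131C run spans 66 bp with 7 sites on the minus strand, and the YAT1 run 1542 bp with 4.

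Inside genes, the 189 sites fell in 133 different genes, whereas the 467 sites in 1 to 3 rows fell in 405. By position along the coding sequence, 73 lay before the midpoint and 116 after it, compared with 210 and 257 for the others, a difference that was not tested. The highest-scoring was in FRA1 (chromosome XII, 82172 to 82187, score 15.7). Next came the PHO4 site, at 79.3% of its coding length. A site in 5 rows lay at the very start of ATP23, a mitochondrial protease gene, and 155 bp upstream of YNR021W. The sites in TAG1 (96.3% of the coding length) and PAC11, a dynein subunit gene (85.5%), lay 411 bp before IDP2, an isocitrate dehydrogenase gene, and 441 bp before RIB3, a riboflavin synthesis gene. Those in PTK1 (29.4%), PUT4, the proline permease gene (15.6%), and CDC25, the Ras activator gene (68.0%), were not upstream of any gene.

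Of the 132 sites between divergent genes, 83 were within 500 bp of both start codons, against 120 of 209 for the sites in 1 to 3 rows. This contrast was not tested. The highest score in the list, 16.1, belonged to a site in 4 rows on chromosome XV (727338 to 727353), 112 bp from GEP3 and 166 bp from NOC2, a ribosome biogenesis gene. RIX7, the gene of an ATPase of large-subunit maturation, and IRC19 shared a site 152 and 111 bp away (score 15.6). A site between PUT3, the activator gene of proline use, and ATP7, an ATP synthase gene, stood 210 and 345 bp away (15.3). GTT3 (173 bp) and SLA2, an endocytosis gene (167 bp), had sites with scores of 14.9 and 14.8, the second also 388 bp from SUI1, the gene of initiation factor eIF1. EFB1, an elongation factor gene, and SSA1, an Hsp70 gene, shared a site in 5 rows 342 and 401 bp away (14.8). SLC1 and LHP1, the La protein gene, shared another (150 and 219 bp).

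A further divergent site lay 187 bp before the ribosomal protein gene RPL43B, opposite the non-coding gene IRT1. Among the 15 highest scores, sites between tandem genes lay upstream of VPH1, a vacuolar ATPase gene (305 bp), SSO1, a plasma membrane t-SNARE gene (420 bp), and MSN1 (225 bp). Another tandem site, 732 bp before RPS22B, was outside the 500 bp class. At the low end, 5 sites in 4 rows had a score of 10.6182, the lowest value in the whole list. They lay 160 bp upstream of CDC24, a polarity gene, 198 bp upstream of SAS5, a histone acetyltransferase complex gene, and inside FUN26, RGP1 and HTC1, the last of these 180 bp before YPL068C. The next lowest, at 10.6364, was in KCS1, the first by position among sites tied at this value.

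Seen from the genes, a site in 4 or 5 rows lay within 500 bp upstream of 275 of 6002 protein-coding genes (4.58%), and any Abf1 site upstream of 811 (13.5%). Of the 275 genes, 222 had 1 such site and 53 had 2 or more. Counting overlapping sites separately, the most were at YHR130C with 7, several of which overlap, and at AFG3 and PGA2 with 4 each. All of these were inside a neighbouring gene. ADE3, PNC1, RLI1, VIR1 and YML100W-A had 3. The gene lists below are counts set beside these shares. A list with many Abf1 sites of any kind can exceed 4.58% without a larger part of them being in 4 or 5 rows. A site between divergent genes counts for both, and the small numbers of genes make the shares imprecise.

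Among the lists of gene expression machinery the shares differed widely. Translation factor genes had such a site in 9 of 43 cases (20.9%), and 18 had any Abf1 site. They included FUN12, the gene of initiation factor eIF5B (128 bp), TIF35 of eIF3 (135 bp), DED1 (164 bp), HYP2, the gene of eIF5A, whose site in 5 rows is inside the neighbouring gene (176 bp), NIP1 (201 bp) and PAB1, the poly(A)-binding protein gene (385 bp). Ribosome biogenesis genes had 13 of 132 (9.85%) and any Abf1 site in 42, among them SOF1 (126 bp), RPF2 (151 bp) and the divergent pair RRP3 (136 bp) and SSF1 (162 bp), which share 1 site. Nuclear RNA polymerase subunit genes had 5 of 31 (16.1%), RPB8 (158 bp), RPB10 (163 bp), RPB3 (196 bp), RPB7 (288 bp) and RPO31 (353 bp). Mitochondrial ribosomal protein genes had 8 of 77 (10.4%), such as MRPL8 (128 bp), MRPS16 (132 bp) and MRPL36 (136 bp). Cytosolic ribosomal protein genes had 5 of 137 (3.65%), namely RPS28A (157 bp), RPL8B (169 bp), RPS28B (176 bp), RPL43B (187 bp) and RPP1A (225 bp). Any Abf1 site was upstream of 10 RNA polymerase, 17 mitochondrial ribosomal and 10 cytosolic ribosomal protein genes.

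Proteasome and tRNA synthetase genes had many Abf1 sites but few in 4 or 5 rows. Of 12 proteasome genes with any Abf1 site, PRE7 alone had one in 4 or 5 rows (141 bp, 5 rows), and of 11 synthetase genes GLN4 alone did (139 bp), from the site it shares with RPS28A. Of 11 splicing genes with an Abf1 site, STO1 of the cap-binding complex was the single case (182 bp). For comparison, 33.9% of all genes with an Abf1 site upstream had one in 4 or 5 rows. The same share was 61.1% for amino acid biosynthesis, 55.6% for kinetochore and spindle, and 50.0% for translation factor and for RNA polymerase genes. It was 30.95% for ribosome biogenesis, 29.4% for mitochondrial import and quality control, and 28.6% for general transcription factor, TFIID and SAGA genes. These contrasts were not tested.

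Amino acid biosynthesis genes had such a site in 11 of 102 cases (10.8%), out of 18 with any Abf1 site. Examples were AAT2, an aspartate aminotransferase gene (169 bp), THR4 (200 bp), HIS1 (210 bp, 5 rows), LEU9 (261 bp), and the regulator genes LYS14 (267 bp, 5 rows) and MET4 (287 bp, 5 rows). Vesicle transport genes had 7 of 83 (8.43%), including SEC62 (116 bp), ERV15 (139 bp), YPT1 (170 bp), SEC17, the alpha-SNAP gene (193 bp), SEC31 (233 bp) and SEC21 of the COPI coat (324 bp). Mitochondrial import and quality control genes had 5 of 54 (9.26%): MIA40 (140 bp), AFG3 (197 bp), the chaperonin gene HSP60 (225 bp), SSC1, the mitochondrial Hsp70 gene (297 bp), and YME1 (301 bp). Respiratory chain genes had 4 of 87 (4.60%), with COX23 (35 bp), QCR6 (314 bp), ATP7 (345 bp) and ATP2 (398 bp). Any Abf1 site was upstream of 13 vesicle transport, 17 mitochondrial import and quality control, and 17 respiratory chain genes.

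Kinetochore and spindle genes had 5 of 49 (10.2%), SKP1 (61 bp), MCM16 (111 bp), STU2 (197 bp), MPS1 (264 bp) and NKP2 (470 bp). General transcription factor, TFIID and SAGA genes had 4 of 48 (8.33%), TFB1 of TFIIH (131 bp), NGG1 of SAGA (151 bp), TAF5 (165 bp) and HFI1 (364 bp). Nuclear pore and transport genes had 4 of 56 (7.14%), NUP133 (134 bp), NUP1 (188 bp), KAP123 (254 bp) and SRP1 (328 bp). Chromatin remodeler genes had 4 of 60 (6.67%), BDF1 (1 bp), IES2 of INO80 (68 bp), IOC2 (142 bp) and SNF2, the SWI/SNF ATPase gene (239 bp). Ubiquitin and anaphase-promoting complex genes had 3 of 74 (4.05%), UBP14, UBR2 and UBP3. DNA replication genes had 1 of 55, TAH11, the Cdt1 gene (149 bp), glycolytic genes 2 of 17, HXK2 (478 bp) and FBA1 (483 bp), and histone genes 0 of 10. Any Abf1 site was upstream of 9 kinetochore and spindle, 14 general transcription factor, 14 nuclear pore and 11 remodeler genes. The counts were 14 for ubiquitin, 5 for replication, 2 for glycolytic and 0 for histone genes.

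**Figure D5:**
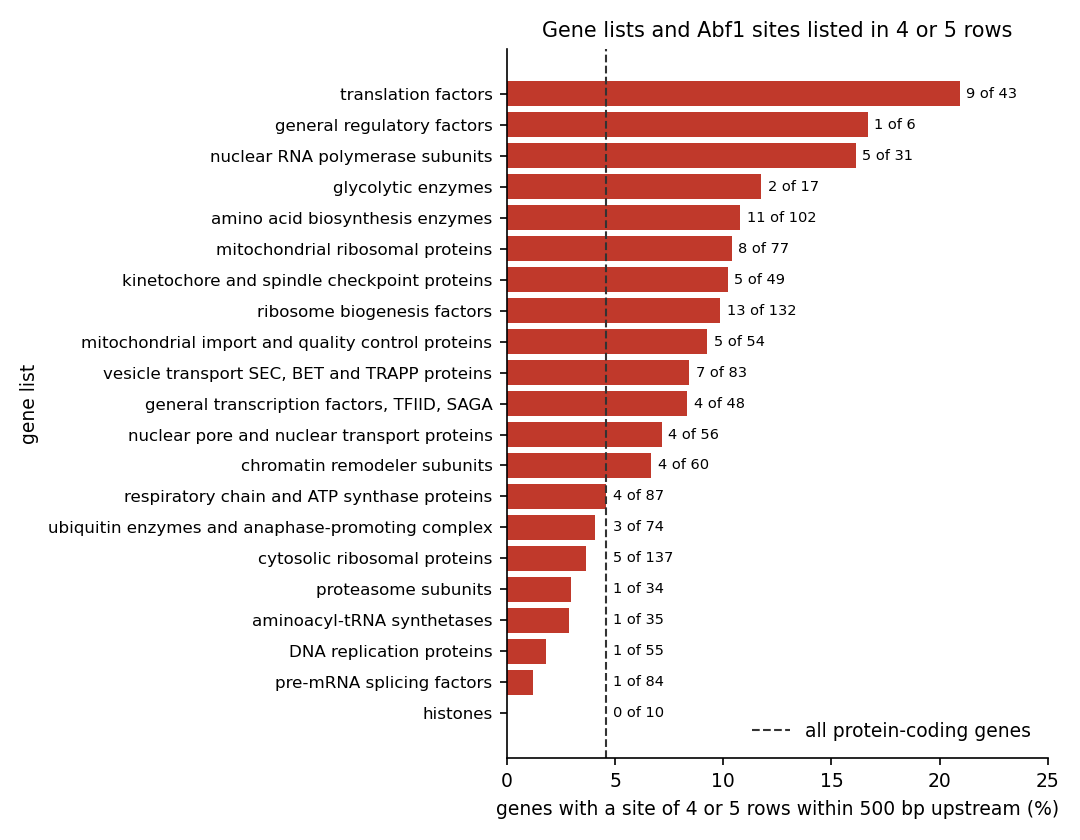
Share of genes (x axis, %) with an Abf1 site of 4 or 5 rows within 500 bp upstream in each of 21 gene lists (y axis), with the count of genes beside each bar; the dashed line is the 4.58% of all protein-coding genes. Translation factor genes are highest at 20.9% (9 of 43), and histone genes are at 0. The dashed line takes no account of how many genes in a list have any Abf1 site.

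Of the 6 general regulatory factor genes, ABF1 itself was the 1 with such a site. Its promoter, shared with RAD27, the flap endonuclease gene, held a site in 4 rows 168 bp from the ABF1 start codon (chromosome XI, 226394 to 226409, score 11.4) and another in 3 rows 321 bp away (score 13.3). Inside the ABF1 coding sequence were 2 more, in 4 rows at 18.8% of its length and in 5 rows at 32.4%. The site with the higher score in this promoter thus fell outside the group. REB1 had 3 Abf1 sites in its coding sequence, none in 4 or 5 rows, and RAP1, MCM1, CBF1 and TBF1 had none upstream or inside.

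Reb1 sites lay within 200 bp of 38 of the 410 sites (9.27%, 6.64 to 12.5) and of 6.49% of the other Abf1 sites, a difference of 2.78 points that did not pass (95% interval up to 5.99; Fisher's exact test, adjusted p = 0.128). Against sites in 1 row, at 4.08%, the difference of 5.19 points passed (exact adjusted p = 0.0150). The closest was in 5 rows, 2 bp from a Reb1 site centre to centre, between VMA4 and MIP1, which encodes the polymerase of mitochondrial DNA. A listed Abf1 site covers 15 or 16 bp, so this closest one overlaps the Reb1 site, and the next ones may too. Others were between ARB1 and PHM8 (13 bp), SNF2 and YPK9 (15 bp), PIN4 and SEC17 (21 bp), STP4 and SIT4 (23 bp) and TAF5 and KTR4 (24 bp). The remaining ones among the 8 closest were inside YBR219C, 486 bp before PYC2, a pyruvate carboxylase gene (16 bp), and upstream of SEC21 (25 bp).

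Along the genome, the sites in 4 or 5 rows were found on all 16 chromosomes, and their share of a chromosome's Abf1 sites ranged from 19.8% on chromosome X (16 of 81, 11.7 to 30.1) to 43.1% on chromosome V (28 of 65, 30.8 to 56.0). Chromosomes V to IX held 111 of the 410 (27.1%, 22.8 to 31.7) and 22.3% of the other sites, which did not pass (Fisher's exact test, adjusted p = 0.0993). Sites in 5 rows alone were there in 34.3% of cases (26.5 to 42.7), 11.8 points above the sites in 1 to 4 rows (exact adjusted p = 0.00850). This p-value treats close neighbours as independent, such as the 6 sites in 5 rows inside YHR131C and the 4 each inside SPC25, PHO4 and SCS3. For sites in 5 rows alone, the difference was not repeated with close sites left out or joined. For the 410 sites the difference of 4.77 points was 0.443 points without sites that had a neighbour within 500 bp, and 1.91 points with sites up to 200 bp apart joined. The other sites of the 410 lie on chromosomes that the series text does not name. Near chromosome ends the sites were rare, with 2 of 410 within 20 kb of the end of the annotated span against 24 of 955 (exact adjusted p = 0.0237). This call was lost at 10 kb (exact adjusted p = 0.180) and at 40 kb (exact adjusted p = 0.0599). The 2 sites lay between AIF1 and COS10 on chromosome XIV and between SRY1 and JEN1 on chromosome XI. At the silent mating-type cassette HMR, whose silencers are known to bind Abf1, a site in 4 rows lay on chromosome III (294802 to 294817, score 13.5) between HMRA1 and the non-coding gene YNCC0014W. HMLALPHA1 of the other silent cassette, TRP1 and GAL3 were also searched. None of them had a site in 4 or 5 rows within 500 bp.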

How the data were processed

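The deposited values were 1 site list per factor (Abf1 and Reb1), of chromosome, start, end, strand and a score that the authors deposited without a definition. The submitters' processing notes name Bowtie, sacCer3 and R64 without roles. The sources used here do not give how motifs were scanned, peaks called or samples pooled. The series had 47 samples, but the lists carry none of them, so no depth or replicate error could be given. Identical Abf1 rows (up to 5) were counted as 1 site, with the number of rows kept, and in no case did the score differ between them. Starts were read as 0-based. Site centres were placed against the RefSeq R64 annotation (6431 nuclear genes, of which 6002 protein-coding) by coding extents, so distances are to start codons. Strand was read from systematic names, which 1 gene lacked. Flanking genes of any kind set divergent, tandem and convergent.

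The members, gene lists and tests were chosen with earlier results of these data known. The named sites and genes were the 15 highest and 6 lowest scores, the 10 highest inside genes, the 10 closest pairs, all runs of 3 or more, the 8 closest to Reb1 sites, those near chromosome ends and silent cassettes, up to 6 nearest per gene list, the 10 genes with most sites and the general regulatory factors. The surroundings of TRP1 and GAL3 were searched too. Gene symbols defined the 21 lists, which therefore miss some genes and include a few with other roles. Shares were compared with Fisher's exact test, Benjamini-Hochberg adjusted over 13 tests. The 4 added tests were adjusted among themselves. Gene placement and the p-value adjustment were checked on small examples with known answers, and Fisher's exact test on simulated counts of independent sites. The other functions were not checked in this way. Tests used scipy 1.17.1 with pandas 2.3.3 and numpy 2.4.6 under Python 3.11.15, and plots matplotlib 3.10.9.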

Additional observations from a re-analysis of the deposited data

How the results depend on the processing

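No replicate was left out and no sample-level alternative was run. No paired analysis was possible because the site lists hold no sample values. The planned count of motif letters was not run, since no sequence was used. Of 112 alternative values of tested differences, 72 kept their direction and side of the threshold. Values below are differences in percentage points, sites in 4 or 5 rows minus the rest, unless a count is named.

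With sites in 5 rows only, 143 sites and 86 genes remained, the intergenic share was -4.66 and the inside share 4.90, that on chromosomes V to IX 11.8 and that near chromosome ends -2.13. Against sites in 1 row, the differences were 9.59 intergenic, -9.59 inside genes, 23.6 upstream, -4.78 tandem, 0.729 plus strand, 6.07 gene strand, 5.19 Reb1, 6.96 on chromosomes V to IX and -1.84 near ends. Merging sites up to 3 bp apart gave -5.97 tandem and 9.82 gene strand. Chromosomes V to IX alone, with 111 sites and 62 genes, gave -5.11 intergenic, 6.52 inside, 4.10 divergent, -8.70 tandem, -19.2 at 100 to 200 bp, 16.9 gene strand and -3.76 near ends, on fewer sites. At or above the median score, with 219 sites, they were -0.998 intergenic, 0.998 inside, 2.68 plus strand, 11.3 gene strand and -1.85 near ends, and the neighbour difference was 12.4.

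With 300 bp upstream, the upstream difference was 6.07 and 182 genes had a site; with 1000 bp, the gene strand difference was 6.11. Chromosome ends of 10 and 40 kb gave -1.01 and -3.15. Leaving out sites with a neighbour within 500 bp, a setting chosen after seeing the data, left 245 sites, with 9.07 intergenic, -8.95 inside, -0.825 tandem, 0.334 plus strand, 9.80 gene strand and -1.93 near ends. Joining sites up to 200 bp apart, also chosen after seeing the data, gave -4.80 tandem, 10.3 gene strand, 1.40 neighbour and -2.16 near ends. Except where an alternative's own construction shows it, the cause was not tested.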
